A study of Mus musculus with 10 samples.

Results

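Duct and progenitor transcription factors of the mouse pancreas were followed through 9 genes, Sox9, Sox4, Onecut1, Onecut2, Prox1, Foxa1, Foxa2, Pdx1 and Nkx6-1, out of 19938 genes measured. They were taken by gene symbol from the array annotation, and each had 1 transcript cluster on the array, with no cluster shared with another gene. RNA of whole pancreas from mice of mixed strain background was measured on arrays of the type Affymetrix Mouse Gene 1.0 ST, 5 from a double knockout group labelled DKO and 5 from a Control group. The DKO genotype is given as PDX1Cre,Mst1-/-,Mst2L/L. MST1, one of a pair of kinases that start the Hippo cascade, was thus removed by a null allele in every cell. MST2, the other kinase, was lost by recombination of floxed alleles in cells that had made Cre recombinase from the promoter of Pdx1, a gene used by progenitors of the pancreas and later by beta cells. The alleles carried by the Control mice, their ages and their sexes are not given in the labels, which also do not state whether each array came from a separate animal, and the p-values then rest on the spread among the 10 arrays alone.

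The Hippo kinases restrain YAP and TAZ, coactivators that bind DNA through TEAD factors. In the embryo, SOX9, PDX1, NKX6-1, FOXA1, FOXA2, PROX1 and the ONECUT factors are made by multipotent progenitors, from which acinar, duct and endocrine cells descend. In the adult organ SOX9 and ONECUT1 persist mainly in duct and centroacinar cells, PDX1 and NKX6-1 mainly in beta cells, and FOXA2 in several epithelial types.

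The deposited log2 intensities had medians of 7.12 to 7.15 over all clusters of an array, and pairwise Pearson correlations of the arrays over genes ran from 0.976 to 0.995. Genes of olfactory and vomeronasal receptors (1194 genes), which the pancreas is not known to use, served as a background scale, with a 95th percentile of 6.10 on the log2 scale. All 9 genes lay above it on all 10 arrays. Stk4, the gene of MST1, lay below it in both groups (mean 5.13 in DKO and 5.15 in Control), so its cluster gave no check of the labels, and Stk3, the gene of MST2, was not analysed here. DKO replicate 1 stood apart in hepatocyte transcripts, with a mean of 10.40 over 22 listed genes, against 6.44 to 7.04 in the other DKO arrays and 6.37 to 7.05 in Control arrays. The same array had the lowest mean of 10 acinar markers, 13.09, against 13.27 to 13.35 in the other DKO arrays and 13.37 to 13.40 in Control arrays. DKO replicate 2 had the highest mean of 6 adipocyte markers, 9.58, against 6.94 to 8.76 in the other DKO arrays and 8.09 to 8.58 in Control arrays. Xist was high in 2 DKO and 3 Control arrays (DKO replicates 1 and 4, Control replicates 2, 3 and 4). The Y chromosome genes Uty, Eif2s3y and Kdm5d were low in those arrays and high in the others, so each group held both sexes.

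None of the 9 genes passed an adjusted p of 0.05 between DKO and Control (limma, adjusted over all 19938 genes), where 2.44% of all genes did. Mean levels were higher in DKO for 4 of the 9 and lower for 5, with a median log2 change of -0.10, against -0.01 over all genes. The median size of the change, without its sign, was 0.26, against 0.08 in the whole table. The standard errors of the 9 were also larger, 0.081 to 0.155, against a median of 0.075 over all genes. What part of the larger size came from this spread was not tested. Before adjustment, 4 of the 9 had a p under 0.05, with Foxa1 and Onecut2 higher and Sox9 and Prox1 lower in DKO. That limit was met by 14.8% of all genes, 9.18% higher and 5.66% lower. The groups did not overlap for Foxa1, higher in DKO, and Sox9, lower. Separate groups were found for 4.80% of all genes, 3.52% with DKO higher and 1.28% with DKO lower. The adjusted p-values of the 9 genes ranged from 0.138 to 0.979.

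**Figure D1:**
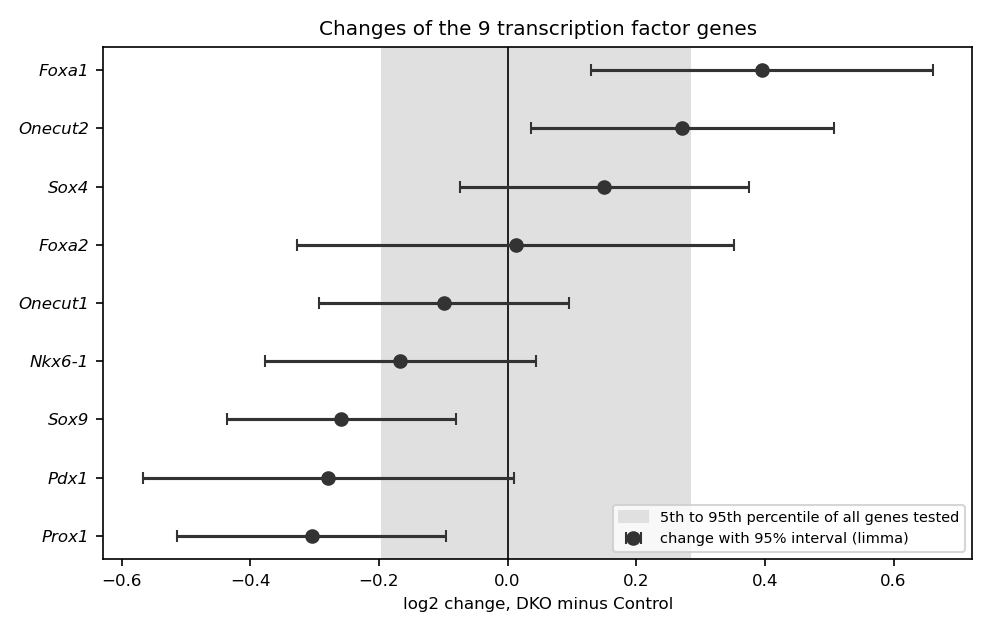
Log2 change (DKO minus Control, horizontal axis) of each of the 9 genes with its 95% interval from the limma fit, 5 arrays per group; the grey band spans the 5th to 95th percentile of the change over all genes, -0.20 to 0.28. The intervals of Foxa1, Onecut2, Sox9 and Prox1 do not reach 0, and no gene passed the adjusted threshold.

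Sox9 codes for the SOX factor that maintains pancreatic progenitors and marks adult duct cells. Its log2 levels were 10.16, 10.56, 10.51, 10.55 and 10.59 in DKO replicates 1 to 5, and 10.72, 10.67, 10.73, 10.83 and 10.70 in Control replicates 1 to 5. Every DKO array lay below every Control array, by a gap of 0.09, and DKO replicate 1, which carried the hepatocyte transcripts, lay far below the other 4. Sox9 averaged 10.47 ± 0.18 in DKO and 10.73 ± 0.06 in Control (SD, n = 5 each), a log2 change of -0.26 ± 0.08 (SE) with a 95% interval of -0.44 to -0.08. On a linear scale the DKO level was 0.836 of the Control level, and the change did not pass the test (limma adjusted p = 0.149). Without DKO replicate 1 the change was -0.18 (limma adjusted p = 0.124). In whole tissue, fewer cells of a type and less RNA per cell cannot be told apart, here or in the results that follow.

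Sox4, a SOX factor of another subgroup that acts in endocrine differentiation, had log2 levels of 9.62, 9.56, 9.65, 9.51 and 9.82 in DKO replicates 1 to 5, against 9.42, 9.60, 9.65, 9.12 and 9.61 in Control replicates 1 to 5. The groups overlapped, and much of the difference in means came from Control replicate 4, the lowest of the 10 arrays. The log2 change was 0.15 ± 0.10 (SE; 95% interval -0.07 to 0.37, limma adjusted p = 0.525), and 0.06 without Control replicate 4. Sox9 and Sox4 were also compared within each array, a pair taken from genes chosen with earlier results of these data known. The per-array difference Sox9 minus Sox4 was lower in DKO by 0.41 ± 0.15 (SE) on the log2 scale, with all 5 DKO arrays below all 5 Control arrays (exact two-sided permutation test, p = 0.00794, adjusted over 5 gene pairs 0.0198). That p is the smallest that 5 arrays against 5 allow, and how many of all gene pairs would separate was not computed. The groups were close, with DKO arrays up to 1.04 and Control arrays from 1.07. Without 1 array the difference ranged from -0.46 to -0.29. The smallest was without Control replicate 4, the highest array for Sox9 and the lowest for Sox4 (exact permutation, adjusted p = 0.0397).

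The promoters of these genes were read from RefSeq (GRCm38.p6), as the 250 bases before each annotated start, with the words of 5 DNA-binding families searched on both strands. The words were GGAATG for TEAD, TGTTTAC for FOXA, ATCAAT for ONECUT, ACAATG for SOX and TAATTA for homeobox factors. Of the 9 genes, 7 were matched, with 10 windows. Sox9 and Onecut2 had no window, so their promoters were not searched. Sox4 is shown because its window was the only one of the 10 that held the TEAD word, which 12.6% of all 32851 windows held. It lies at chr13:28953700-28953949 on the minus strand, with the word in capitals.
Sox4: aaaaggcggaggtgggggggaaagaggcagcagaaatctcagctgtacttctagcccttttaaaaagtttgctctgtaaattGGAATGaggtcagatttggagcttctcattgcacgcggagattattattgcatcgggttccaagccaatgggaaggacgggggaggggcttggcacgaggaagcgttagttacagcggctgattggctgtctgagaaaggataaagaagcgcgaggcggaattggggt

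Onecut1, or HNF6, a cut homeobox factor needed for duct formation and for endocrine precursors, had log2 levels of 9.66, 9.92, 9.87, 9.65 and 9.82 in DKO replicates 1 to 5. In Control replicates 1 to 5 it had 9.71, 9.73, 9.97, 10.12 and 9.88. The groups overlapped, and the log2 change was -0.10 ± 0.09 (SE; 95% interval -0.29 to 0.10, limma adjusted p = 0.632). It was -0.04 without Control replicate 4, the highest array, and -0.07 without DKO replicate 4, the lowest. Its paralogue Onecut2 ran the other way, with 8.53, 8.55, 8.29, 8.09 and 8.09 in DKO replicates 1 to 5, against 7.95, 8.14, 8.10, 8.16 and 7.84 in Control replicates 1 to 5. DKO replicates 1, 2 and 3 lay above all Control arrays, while replicates 4 and 5 lay within their range. The log2 change of Onecut2 was 0.27 ± 0.11 (SE; 95% interval 0.04 to 0.51) and did not pass (limma adjusted p = 0.269). The difference Onecut1 minus Onecut2 was lower in DKO by 0.37 ± 0.13 (SE), with overlapping groups (exact permutation p = 0.0159, adjusted over 5 pairs 0.0265). This call held without DKO replicate 5 or Control replicate 2 and ended without any 1 of the other 8 arrays (adjusted p = 0.0529 in each case, with differences between -0.40 and -0.29).

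Prox1, the prospero homeobox factor of pancreatic progenitors, which also defines lymphatic endothelium, had log2 levels of 8.29, 8.66, 8.51, 8.67 and 8.49 in DKO replicates 1 to 5. In Control replicates 1 to 5 the levels were 8.73, 8.64, 8.78, 9.08 and 8.91. All 5 DKO arrays lay below the Control mean, and 3 of them below the lowest Control array. Prox1 averaged 8.53 ± 0.15 in DKO and 8.83 ± 0.17 in Control (SD, n = 5 each), a log2 change of -0.30 ± 0.10 (SE; 95% interval -0.51 to -0.10, limma adjusted p = 0.150). Of 7 lymphatic endothelial markers none passed higher and 1 passed lower, the semaphorin coreceptor gene Nrp2 (log2 change -0.32, limma adjusted p = 0.00726, passing without each array in turn), where 2.08% and 0.366% of all genes passed higher and lower. The other 6 had higher means in DKO, with log2 changes of 0.07 to 0.60, and the list median was 0.22. At an unadjusted p of 0.05 the list held 4 genes, Nrp2 lower and Pdpn, Flt4 and Mmrn1 higher. The mean of these markers was 8.19 to 8.44 in DKO and 7.87 to 8.26 in Control, overlapping ranges, and their part in the Prox1 values was not tested.

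**Figure D2:**
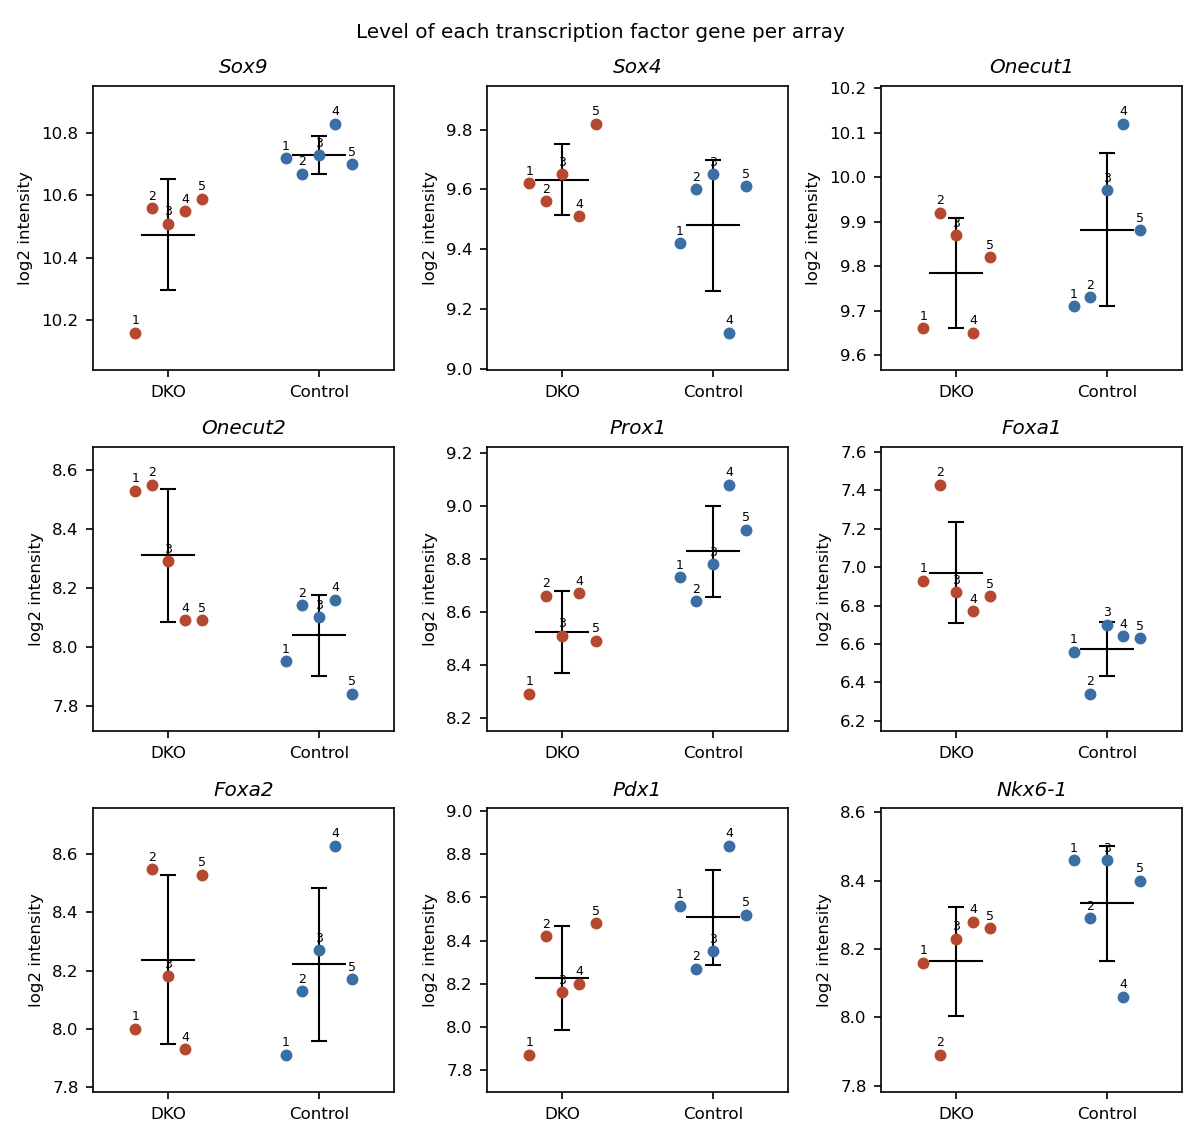
Log2 intensity of each gene (vertical axes, a scale per gene) in the 5 DKO and 5 Control arrays; points are arrays with their replicate number, and the lines give the mean ± SD. The groups are apart for Sox9, lower in DKO, and for Foxa1, higher in DKO, and overlap for the other 7 genes.

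The FOXA proteins are forkhead pioneer factors that open chromatin in endoderm, and both act upstream of Pdx1. Foxa1 had log2 levels of 6.93, 7.43, 6.87, 6.77 and 6.85 in DKO replicates 1 to 5, against 6.56, 6.34, 6.70, 6.64 and 6.63 in Control replicates 1 to 5. Every DKO array lay above every Control array, by a gap of 0.06. DKO replicate 2, the array with the highest adipocyte marker mean, lay far above the other 4. Foxa1 averaged 6.97 ± 0.26 in DKO and 6.57 ± 0.14 in Control (SD, n = 5 each). Its log2 change was 0.40 ± 0.12 (SE), with a 95% interval of 0.13 to 0.66, the largest of the 9 genes in size, and did not pass (limma adjusted p = 0.138). Foxa1 was also the dimmest of the 9, with Control levels close to the background 95th percentile of 6.10. Without DKO replicate 2 it was 0.28 (limma adjusted p = 0.120).

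Foxa2 levels were 8.0, 8.55, 8.18, 7.93 and 8.53 in DKO replicates 1 to 5, against 7.91, 8.13, 8.27, 8.63 and 8.17 in Control replicates 1 to 5. Each group covered nearly the whole range, and the log2 change was 0.01 ± 0.15 (SE; 95% interval -0.33 to 0.35, limma adjusted p = 0.979). The difference Foxa1 minus Foxa2 was higher in DKO by 0.38 ± 0.16 (SE), with overlapping groups, and did not pass after adjustment (exact permutation p = 0.0476, adjusted over 5 pairs 0.0595). It passed after renewed quantile normalization (0.45, adjusted p = 0.0298) and without DKO replicate 5 (0.49, adjusted p = 0.0198).

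The Foxa1 window, at chr12:57546112-57546361 on the minus strand, was the only one of the 10 with the FOXA word (in capitals, in its reverse complement), which 3.17% of all windows held. It is shown as the promoter of the gene with the largest change among the 9 and a match to its own family's word. One of 3 annotated Foxa2 windows, at chr2:148046970-148047219 on the minus strand, held the ONECUT word (in capitals, also in its reverse complement), found in 6.72% of all windows and in no other of the 10. It is shown beside the first so that the FOXA paralogues can be compared. The SOX and homeobox words, held by 10.7% and 4.84% of all windows, were in none of the 10. These matches are descriptions of letters, not of binding.
Foxa1: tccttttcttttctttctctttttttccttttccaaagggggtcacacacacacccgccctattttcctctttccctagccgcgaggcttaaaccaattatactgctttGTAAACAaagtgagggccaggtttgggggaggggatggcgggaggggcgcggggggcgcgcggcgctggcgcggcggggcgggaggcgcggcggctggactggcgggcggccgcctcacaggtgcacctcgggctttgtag
Foxa2: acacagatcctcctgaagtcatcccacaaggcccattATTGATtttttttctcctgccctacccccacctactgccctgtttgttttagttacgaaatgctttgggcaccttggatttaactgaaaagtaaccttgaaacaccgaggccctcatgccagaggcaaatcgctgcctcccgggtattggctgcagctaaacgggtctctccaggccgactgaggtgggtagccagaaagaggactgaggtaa

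Pdx1 codes for the homeobox factor required for pancreas formation and for beta cell function, and its promoter drives the Cre of the DKO mice. Its log2 levels were 7.87, 8.42, 8.16, 8.20 and 8.48 in DKO replicates 1 to 5, against 8.56, 8.27, 8.35, 8.84 and 8.52 in Control replicates 1 to 5. All 5 DKO arrays lay below the Control mean, but 2 of them were within the Control range. The log2 change was -0.28 ± 0.13 (SE; 95% interval -0.57 to 0.01, limma adjusted p = 0.355). Without DKO replicate 1 and Control replicate 4 together, the lowest and highest arrays for this gene, it was -0.11 (limma adjusted p = 0.558).

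Nkx6-1, a homeobox factor of progenitors and of beta cells, had log2 levels of 8.16, 7.89, 8.23, 8.28 and 8.26 in DKO replicates 1 to 5, against 8.46, 8.29, 8.46, 8.06 and 8.40 in Control replicates 1 to 5. The groups overlapped, DKO replicate 2 was the lowest array and Control replicate 4 the next lowest. The log2 change was -0.17 ± 0.10 (SE; 95% interval -0.38 to 0.04, limma adjusted p = 0.453), and -0.10 without DKO replicate 2. The changes of Pdx1 and Nkx6-1 were not distinguished, with a difference Pdx1 minus Nkx6-1 of -0.11 ± 0.21 (SE; exact permutation p = 0.603).

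Of the 10 arrays, Control replicate 4 was most often an extreme. Control replicate 4 was the highest array for 5 of them, Sox9, Onecut1, Prox1, Foxa2 and Pdx1, and the lowest for Sox4. DKO replicate 1 was the lowest for 3, Sox9, Prox1 and Pdx1, and DKO replicate 2 was the highest for Onecut2 and Foxa1 and the lowest for Nkx6-1. With DKO replicate 1 and Control replicate 4 both left out, the change was -0.16 for Sox9, -0.18 for Prox1, 0.42 for Foxa1 and 0.25 for Onecut2, and 0 of the 9 genes passed. For the others it was -0.01 for Onecut1, 0.17 for Foxa2, 0.06 for Sox4, -0.11 for Pdx1 and -0.23 for Nkx6-1.

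**Figure D3:**
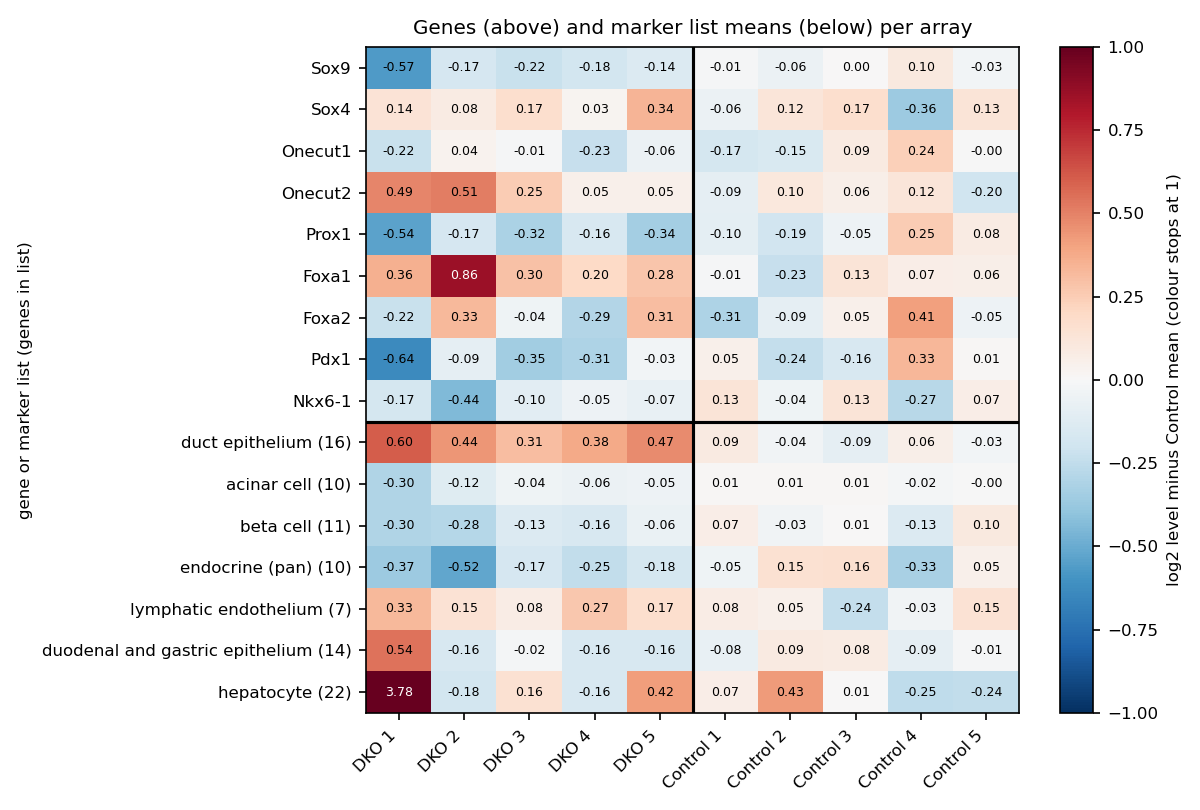
Log2 level minus the Control mean for the 9 genes (upper rows) and the means of 7 marker lists (lower rows, number of genes in brackets) in each array; columns are arrays, DKO left of Control, and the colour stops at 1. Sox9 and Prox1 are below the Control mean in all 5 DKO arrays while the duct marker mean is above it, and DKO replicate 1 carries the hepatocyte transcripts.

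Beside these factors, markers of the duct epithelium were mostly higher in DKO. Of 16, 7 passed higher and none lower (limma), where 2.08% and 0.366% of all genes did, with a median log2 change of 0.29. Their mean level was 10.14 to 10.43 in DKO and 9.74 to 9.92 in Control, with no overlap. The highest value was that of DKO replicate 1, which carried the hepatocyte transcripts, and the other DKO arrays had 10.14 to 10.30. Ambp is on both the duct and the hepatocyte list, and the part of liver transcripts in these means was not tested. Krt19, a keratin of duct cells, had levels of 10.28 to 10.56 in DKO and 9.90 to 10.20 in Control (log2 change 0.41 ± 0.07 SE, limma adjusted p = 0.0155). It did not pass without both DKO replicate 1 and Control replicate 4 (0.0654). The others were the keratin genes Krt7 (1.22) and Krt8 (0.30), the claudin gene Cldn4 (1.37), the tetraspanin gene Tspan8 (0.96), the clusterin gene Clu (0.69) and the ceruloplasmin gene Cp (1.05), each value a log2 change. Krt8 lost its call when any of 8 single arrays was left out (up to 0.0985, Control replicate 2) and Tspan8 when any of 6 was (up to 0.0683, DKO replicate 5). Among the markers that did not pass, Car2 (-0.35) and Muc1 (-0.03) had lower means in DKO. Cldn7 (0.025) and Ambp (0.018) changed little, and Krt18, Epcam, Cftr, Slc4a4 and Anxa2 were higher by 0.17 to 0.50.

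The level of Sox9 was set against that of Krt19. The difference Sox9 minus Krt19 was lower in DKO by 0.67 ± 0.13 (SE, log2 scale), with all 5 DKO arrays below all 5 Control arrays (exact permutation p = 0.00794, adjusted over 5 pairs 0.0198), and by 0.58 without DKO replicate 1 (adjusted p = 0.0397). A comparison added after seeing the data set each factor against the mean of a marker list in the same array, the 16 duct markers for 7 genes and 11 beta cell markers for Pdx1 and Nkx6-1. Against the duct markers Sox9 was lower in DKO by 0.70 ± 0.12, Prox1 by 0.75 ± 0.13 and Onecut1 by 0.54 ± 0.12 (SE), each with groups that did not overlap (exact permutation, adjusted over 9 differences 0.0238 each). Without DKO replicate 1 these differences were -0.58, -0.65 and -0.47, with an adjusted p of 0.0476 each. A value within an array shows unequal change and not which side of the difference changed. The mean of the duct markers, a list chosen with earlier results known, was itself higher in DKO by 0.44, and Krt19 by 0.41. A gene without any change would thus tend to come out lower against either. The change of Onecut1 itself was -0.10. How many of all genes would separate from the duct marker mean was not computed.

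Foxa1 differed from the duct markers by -0.05 ± 0.14 (SE, adjusted p = 0.770), with changes of 0.40 for Foxa1 and 0.44 for the mean of the markers. Onecut2 differed from them by -0.17 ± 0.12 (adjusted p = 0.274), Sox4 by -0.29 ± 0.14 (adjusted p = 0.171) and Foxa2 by -0.43 ± 0.19 (adjusted p = 0.107), by the same exact permutation test. That of Foxa2 passed without Control replicate 1 (-0.53, adjusted p = 0.0357). Pdx1 differed from the beta cell markers by -0.09 ± 0.15 and Nkx6-1 by 0.02 ± 0.07 (SE, adjusted p = 0.770 each, exact permutation). None of 11 beta cell markers passed limma in either direction (5 at an unadjusted p of 0.05), with a median log2 change of -0.18 and a mean level of 9.11 to 9.35 in DKO and 9.28 to 9.51 in Control. Of 10 genes shared by all endocrine cells 1 passed lower, the secretory vesicle gene Ptprn2 (-0.79, limma adjusted p = 0.00971), with a list median of -0.26.

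**Figure D4:**
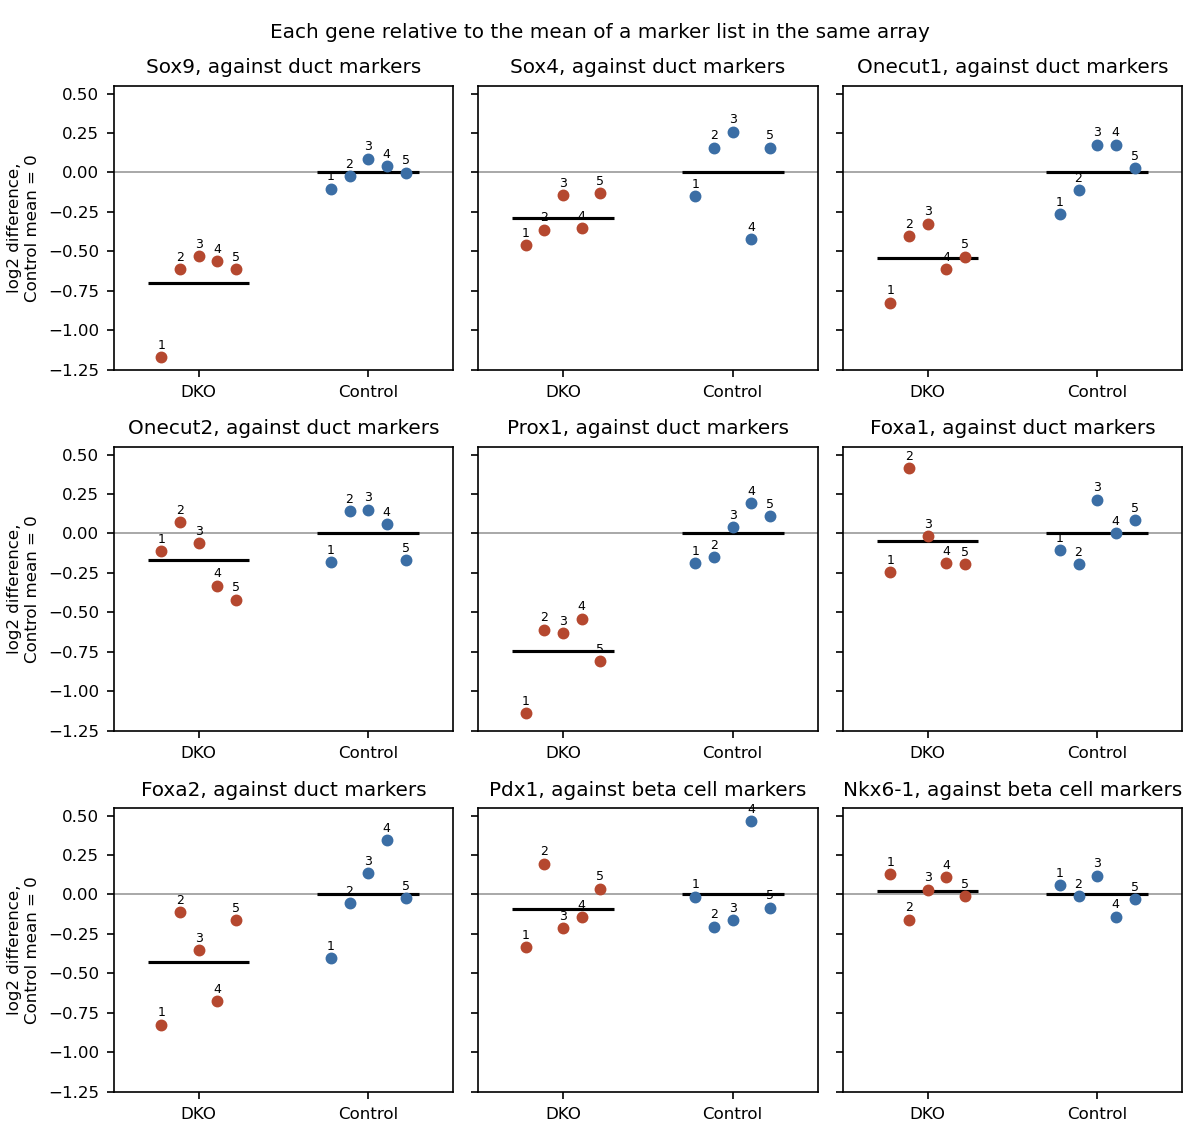
Log2 level of each gene minus the mean of the duct markers (7 panels) or beta cell markers (Pdx1 and Nkx6-1) in the same array, shifted so that the Control mean is 0; points are arrays with their replicate number and lines are group means. For Sox9, Onecut1 and Prox1 all 5 DKO arrays lie below all 5 Control arrays, and for Foxa1, Pdx1 and Nkx6-1 the groups lie over each other. The duct marker mean is itself higher in DKO, so a gene without change would tend to lie lower there.

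Other lists of cell markers held few calls, where 2.44% of all genes passed limma. Of 14 duodenal and gastric genes 2 passed lower, the gastric mucin gene Muc6 (-0.39, adjusted p = 0.0210) and the trefoil factor gene Tff2 (-0.29, adjusted p = 0.0309). The first lost its call without Control replicate 5 (0.0579), and the second without any 1 of 7 arrays (highest 0.0911, without Control replicate 2) and after renewed quantile normalization (0.132). Muc6 lay at 5.87 to 6.11 in DKO, near the background 95th percentile of 6.10. No gene passed limma among 10 acinar, 8 alpha, delta and PP cell, 22 hepatocyte, 8 blood endothelial, 10 stellate and fibroblast, 9 macrophage and lymphocyte, 6 adipocyte and 5 nerve and Schwann cell markers. At an unadjusted p of 0.05 these lists held 2, 2, 0, 1, 1, 1, 0 and 1 genes, in that order, and their median log2 changes were -0.06, -0.13, 0.89, -0.03, 0.04, 0.15, -0.23 and 0.00. The hepatocyte genes were high on DKO replicate 1, as given above. Although no acinar marker passed, their mean level was 13.09 to 13.35 in DKO and 13.37 to 13.40 in Control, with no overlap. The brightest of them, Ctrb1, reached 13.73, near the highest value of the data, 13.94.

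The wider circuit around these factors was read from 8 lists. Among 23 other pancreatic progenitor factors and Hippo effectors none passed in either direction (limma; 8 at an unadjusted p of 0.05), with a median log2 change of 0.08. The 3 with the smallest p were Wwtr1, the gene of TAZ (0.45, adjusted p = 0.0540), Glis3, a zinc finger factor of islets and ducts (0.48, adjusted p = 0.0573), and Tead1, a DNA-binding partner of YAP (0.26, adjusted p = 0.0728). The count of this list was 4 without DKO replicate 2 and 3 with the dimmest 50% of genes left out. Classic targets of YAP and TAZ had 9 of 18 higher and none lower, with a median of 0.35, which no alternative took below 7. The 3 with the smallest p were Ccn1, a secreted matrix protein (1.43, adjusted p = 0.000336), Ajuba, whose LIM domain product acts on the LATS kinases (0.73, adjusted p = 0.00103), and the ankyrin repeat gene Ankrd1 (1.51, adjusted p = 0.00104). The other 6 were Amotl2, F3, Lats2, Nuak2, Ptpn14 and Tgfb2, with log2 changes of 0.33 to 0.71, and Ptpn14 (adjusted p = 0.0281) lost its call when any of 8 single arrays was left out (up to 0.0827, Control replicate 2). Ankrd1 lay under the background 95th percentile of 6.10 in Control (5.78 to 6.05) and at 7.10 to 7.95 in DKO.

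Factors of ductal and injured epithelium had 3 of 19 higher and 1 lower. The Kruppel-like factor genes Klf5 and Klf6 were higher by 0.33 and 0.67 (limma adjusted p = 0.0198 and 0.0285), and the zinc finger gene Glis2 by 0.44 (adjusted p = 0.0452). Ascl2, a helix-loop-helix factor of intestinal stem cells, fell by 0.56 (adjusted p = 0.00589) and passed without each of the 10 arrays. Its DKO levels, 6.04 to 6.38, lay near the background 95th percentile of 6.10. The other 3 calls each ended without some arrays. Klf5 lost it without DKO replicate 1, DKO replicate 4 or Control replicate 2 (highest 0.0590), Klf6 without any 1 of 5 arrays (highest 0.0733, without Control replicate 5) and Glis2 without any 1 of 8 (highest 0.116, without Control replicate 3).

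Acinar factors had 1 of 13 lower and none higher, with a median log2 change of -0.10. Rbpjl, the acinar subunit of the PTF1 complex, fell by 0.45 (limma adjusted p = 0.0225), a call that ended without DKO replicate 4, Control replicate 3 or Control replicate 5 (highest 0.0689). Tcf12 (0.17, adjusted p = 0.219), a helix-loop-helix factor, and Bhlha15, the secretory cell factor MIST1 (-0.57, adjusted p = 0.225), did not pass. Endocrine factors had 0 of 16 past limma (6 at an unadjusted p of 0.05), with a median of -0.18. Their count was 3 with array weights, 2 with the dimmest 50% of genes left out and 0 or 1 in the other alternatives. Beside Glis3, Nkx2-2, a homeobox factor of endocrine cells, was lower by 0.35 (adjusted p = 0.0605) and Insm1, a zinc finger factor of endocrine precursors, by 0.32 (adjusted p = 0.0881). Genes bound or driven by PDX1 and NKX6-1 in beta cells had 0 of 10 past limma (6 at an unadjusted p of 0.05), with a median of -0.28, and no alternative gave more than 1. Nkx2-2 was followed there by the amylin gene Iapp (-0.32, adjusted p = 0.0971) and the beta cell factor gene Mafa (-0.26, adjusted p = 0.157).

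Within the families, 17 other SOX genes had 1 lower and none higher, with a median log2 change of -0.10. Sox13 was lower by 0.24 (limma adjusted p = 0.0248) and lost its call without any 1 of 7 arrays (highest 0.0741, without Control replicate 2). Sox5 (0.26, adjusted p = 0.0916) and Sox3 (-0.22, adjusted p = 0.225) did not pass. The 18 other forkhead genes had none past limma (1 at an unadjusted p of 0.05), with a median of -0.01. Foxo1 was the first of them (-0.19, adjusted p = 0.139), before Foxj1 (0.12, adjusted p = 0.349) and Foxc2 (0.15, adjusted p = 0.465).

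**Figure D5:**
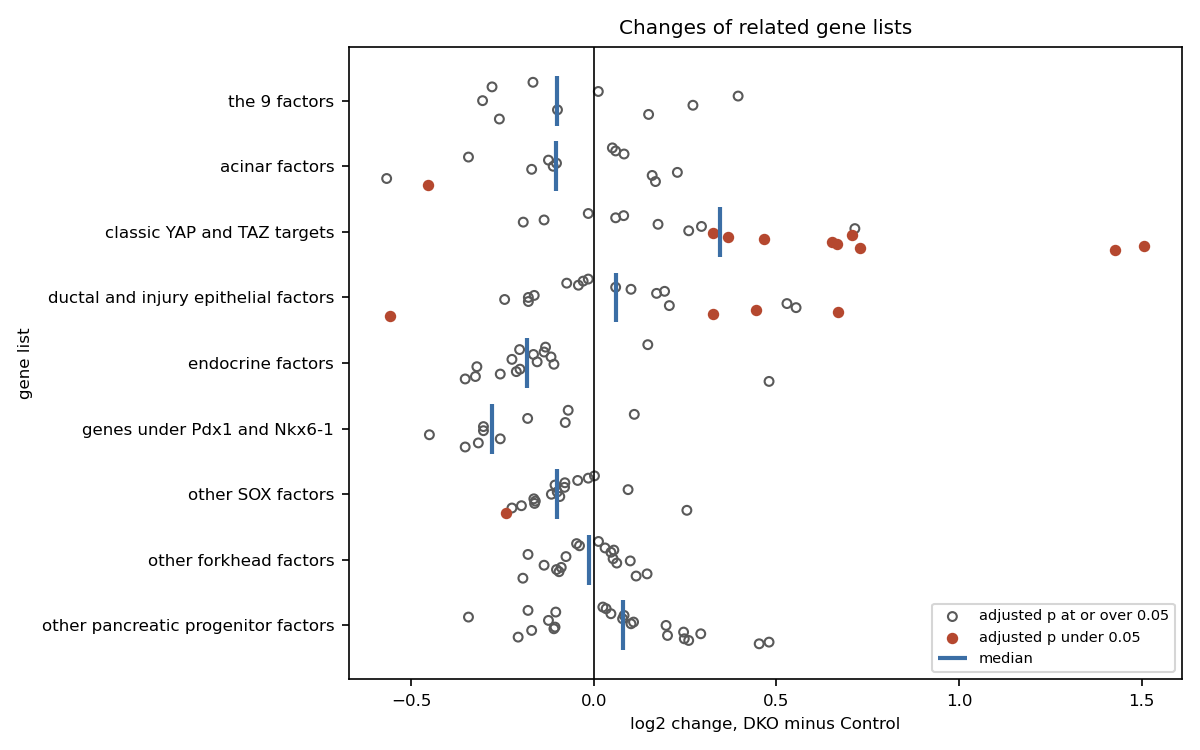
Log2 change (DKO minus Control, horizontal axis) of each gene of the 9 factors and of 8 related lists, 5 arrays per group; filled points passed an adjusted p of 0.05 (limma), open points did not, and the vertical bars are list medians. The targets of YAP and TAZ hold 9 filled points on the higher side, while the 9 factors hold none.

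Likeness of pattern was described by Pearson's r between the deviations of 2 genes from their group means over the 10 arrays, which removes the difference between groups. The 2 genes most like Sox9 were Rasa1 and Etnk1 (r = 0.959 and 0.956), those most like Prox1 were Hnrnpu and Rnf169 (0.939 and 0.937), and those most like Foxa1 were Mir218-1 and Sox7 (0.938 and 0.920). For Onecut1 they were Edaradd and Nrd1 (0.967 and 0.950), and for Onecut2 Gm9861 and Niban3 (0.977 and 0.959). For Foxa2 they were Dynll2 and Polr3g (0.980 and 0.977), and for Sox4 Letm1 and Ppp1r1a (0.954 and 0.953). For Pdx1 they were Zfp677 and Ube2v2 (0.981 and 0.978), and for Nkx6-1 Eif2b5 and Zfr (0.976 and 0.973). They are the 2 highest of 19937 values for each gene over 10 arrays, among them arrays that stand apart for several genes, and are descriptions only. None of these 18 genes passed limma between DKO and Control.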

How the data were processed

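Pancreas RNA of 5 DKO and 5 Control samples was measured on Affymetrix Mouse Gene 1.0 ST arrays. Affymetrix Expression Console was used, per the submitters' processing notes. Its version and settings, and the genome build, were not given in the sources used. The authors deposited log2 intensities per transcript cluster (2.79 to 13.94), and no further normalization was applied. Array medians over the genes tested were 7.562 to 7.628 in DKO and 7.551 to 7.591 in Control. Of 35556 clusters, 21789 had 1 gene symbol, 1621 several and 12146 no gene name here. Symbols were updated through gene identifiers (21698 matched, RefSeq GRCm38.p6), and the brightest cluster stood for each of 999 genes with several, leaving 19938 genes.

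DKO was set against Control by limma 3.58.1 under R 4.3.3 (functions lmFit and eBayes, two-sided, Benjamini-Hochberg over all genes, threshold 0.05). This fit gives the adjusted p of each gene, and 95% intervals use its standard errors with 10.96 degrees of freedom. Differences between genes within an array used an exact two-sided permutation test over 252 splits. The fit was tested on simulated data. The 9 genes and all lists were chosen with earlier results of these data known. The 5 pairs were drawn from these genes and Krt19. The rule for named genes was all 9, of each list any gene past the threshold and the 3 with the smallest p, and the 2 genes nearest in pattern to each of the 9. Marker lists beyond their called genes are given as counts. A fit with the replicate number as a block, other normalizations, filters and variance models, Xist as a covariate and leaving out each array in turn were tried. The precision is limited by 5 arrays per group. Clusters with several genes or none were left out, and 1 list of related genes is not reported here.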

Additional observations from a re-analysis of the deposited data

Results flagged for a closer look

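Among 18 sets of 5 arrays (9 genes in each group), 2 held an array far from the other 4, where chance gives about 1 in 20. Sox9 was 10.16 in DKO replicate 1, below 10.51 to 10.59 in the other DKO arrays. That array also held the hepatocyte transcripts, and without it the Sox9 change was -0.18, against -0.26 with it. Foxa1 was 7.43 in DKO replicate 2, above 6.77 to 6.93 in the other DKO arrays.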

How the results depend on the processing

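None of the 9 genes passed limma under any of the 21 alternatives run, with adjusted p-values from 0.0746 upwards. Those of Sox9, Prox1 and Foxa1 were lowest after renewed quantile normalization (limma adjusted p = 0.0877, 0.0746 and 0.0957). The changes there were -0.29, -0.36 and 0.41. Foxa1 has no value with the dimmest 50% of genes left out, since it is among them. The changes of the 8 genes besides Foxa2 kept their sign in every alternative that gave a value. Foxa2, near 0, turned to -0.038 after renewed quantile normalization, -0.028 after centring on array medians and -0.002 with Xist as a covariate, and ranged from -0.066 to 0.115 without 1 array (0.174 without DKO replicate 1 and Control replicate 4 together). The number of genes past the threshold was 487, and 298 without moderation of the variance, 178 with the replicate block and 260 to 433 without 1 array (below 325 without Control replicate 2 or 3 or DKO replicate 1, 4 or 5). It split into 414 higher and 73 lower, 321 and 125 after quantile normalization and 271 and 103 after centring. Whether equal replicate numbers pair the samples is not stated in the labels. Correlations of deviations between arrays of the same number were -0.267 to 0.290, with 3 of 5 below 0, and cannot settle it. With the replicate block, a sign-flip test whose smallest p is 0.0625, the differences Sox9 minus Krt19 (-0.67), Sox9 minus Sox4 (-0.41) and Onecut1 minus Onecut2 (-0.37) could not pass (adjusted p = 0.104 each). Nor could those of Sox9, Prox1 and Onecut1 against duct markers (0.141 each). Among called list genes, the limma fit with the block ended the calls of Sox13, Rbpjl, Klf5, Klf6, Glis2, Krt8, Tspan8, Ptpn14, Nrp2, Muc6 and Tff2 (adjusted p from 0.0552 to 0.165). Without 1 array Onecut1 minus Onecut2 ranged from -0.435 to -0.286 and Foxa1 minus Foxa2 from 0.297 to 0.485, and the second was 0.45 after quantile normalization. Pdx1 minus Nkx6-1 ranged from -0.229 to 0.0399. Against marker lists, Foxa1 ranged from -0.161 to 0.00839, Pdx1 from -0.162 to 0.0276 and Nkx6-1 from -0.0123 to 0.0666. Sox9, Prox1 and Onecut1 passed against the duct markers without each array in turn. The duct marker mean was itself higher in DKO, and a gene without change would tend to come out lower against it. Of the 168 counts of the related lists, 39 differed from the reported count by over 1.5 times or moved to or from 0. Precision is limited by 5 arrays per group: the standard errors of the 9 genes were 0.081 to 0.155. Among all genes the smallest change called was 0.183 in size, and the median size of a called change was 0.435.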
